A study of Mus musculus with 9 samples.

Results

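The Polo-like kinases are a family of serine/threonine kinases with 5 members in the mouse, Plk1 to Plk5, and their transcripts were examined in the adult hippocampus of mice that carry a more active form of the kinase Braf. All 5 genes were found by symbol among the 18275 genes of the deposited table. The family was chosen by its normalised counts in this same genotype contrast, above all the low level of Plk5 in the mutants, so the genotype differences of the family are given as descriptions. No p-value of a member is reported, and how many members lie past the threshold of the fit across all genes is given only as a count, from which nothing is read. The study sequenced hippocampal RNA from 4 Nestin;BrafKE/+ and 5 Braf+/+ male C57BL/6N mice, 1 library per animal, to ask which transcripts change with the mutant allele.

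Nestin;BrafKE/+ mice carry 1 allele of Braf that encodes the K499E change and is expressed from the Braf locus after Cre recombination, beside 1 wild-type allele. Cre was driven by the Nestin promoter, which is active in embryonic neural stem cells, so neurons and glia of the tissue can both carry the mutation. Controls were littermates labelled Braf+/+ with the genotype WT. The labels do not say whether they carried Cre. By the style of their names the libraries form 3 series (A, B and C), whose meaning is not given. Mutant replicate 1 and control replicates 1 to 3 belong to A, mutant replicates 2 and 3 and control replicate 4 to B, and mutant replicate 4 and control replicate 5 to C. Values are normalised counts that the authors had already adjusted for batches, and library totals ran from 19551312 to 20091532 normalised counts. Markers of the hippocampus were present in every library, with normalised counts of at least 18984 for Slc17a7, a glutamate transporter of excitatory neurons, 1881 for Prox1, a dentate granule cell factor, 2304 for Wfs1 of CA1 and 1393 for Rgs14 of CA2. Braf itself, whose transcript comes from both alleles, had 2264 ± 144 normalised counts (SD, n = 4) in the mutants and 2786 ± 153 (SD, n = 5) in controls. Every mutant library was below every control, with a log2 difference of -0.30 (SE 0.07, adjusted p = 0.0378 in the limma fit described at the end). Groups without overlap, in either direction, were found for 15.7% of all genes tested. By series the Braf difference was -0.13 (A), -0.48 (B) and -0.31 (C), and it was not followed over settings that left out 1 library. For BRAF protein the paper reports no significant change in the hippocampus of these mutants. The Braf transcript level counts both alleles together and does not tell mutant from wild-type transcripts.

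Polo-like kinases combine a kinase domain with polo boxes, which bind phosphorylated partners and bring the enzyme to its place in the cell. Plk1 drives entry into and passage through mitosis, and Plk4 starts the duplication of centrioles. Plk2 and Plk3 respond to signals: Plk2 is induced by synaptic activity in neurons and acts on regulators of Ras and Rap at the synapse, and Plk3 takes part in stress and checkpoint responses. Plk5 is the member most restricted to the brain, where it has been tied to neurite formation, and it lacks a complete kinase domain.

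Short promoter motifs are shown for Plk2, Plk3 and Plk5, the members with the clearest genotype differences in level. A relation of motifs to these differences was not tested. RefSeq windows from 250 bases before to 50 after the annotated start (GRCm38.p6) were searched on both strands and placed in GRCm39 by an exact match. These motifs are printed below with their flanks, 30 bases in all, 5′ to 3′ on the strand of the gene, with the motif in capitals.
Plk2, chr13:110531505-110531534, plus strand: agcgctcgccgTGACGTCAcgaggccccgc
Plk3, chr4:116991275-116991304, minus strand: agatctttcaggTGACGtaaggcggagcaa
Plk5, chr10:80192202-80192231, plus strand: ttggctccagagCACCTGccactcggcttc
Plk5, chr10:80192263-80192292, plus strand: ccccgccccgccccgcccccactctCCAAT
In Plk2 the capitals are the full cyclic AMP response element TGACGTCA, which begins 62 bases before the start and is held by 1.79% of the 32851 promoters of the same length. The Plk3 run shows its core TGACG, 132 bases before the start, which 20.8% of promoters hold and which also lies inside the full element of Plk2 and in the window of Plk4. Plk5 held neither. Its window had the E-box CACCTG, 79 bases before the start, and a CCAAT box that begins 5 bases before it, held by 20.2% and 37.4% of promoters. Plk3 also held CACCTG, and Plk1 a CCAAT box. In the printed Plk3 run a copy of CACCTG lies on the other strand, as CAGGTG, and overlaps the capitals of TGACG. The E-box CACGTG, the EGR motif GCGGGGGCG, the AP-1 motif TGANTCA and TATAAA were in none of the 5 windows, against 7.15%, 2.91%, 7.81% and 13.6% of promoters. Plk1 held the cell cycle motif TTTGAA (17.9% of promoters), and Plk4 held the ETS core CCGGAA (14.9%). These are matches of letters and not sites shown to be bound. All 300 bases of the Plk2 and Plk5 windows fall in exons of some Gencode transcript, so the start used by RefSeq is not the only annotated one.

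Plk5 (ENSMUSG00000035486, chr10:80191943-80201323 in GRCm39, plus strand, with 14 exons in the canonical transcript and no annotated overlap with another gene) had 45.2, 70.5, 56.9 and 72.8 normalised counts in mutant replicates 1 to 4. In control replicates 1 to 5 it had 460, 337, 422, 332 and 303. Every mutant library was below every control, and the lowest control was 4.17 times the highest mutant. The means were 61.4 ± 12.9 (SD, n = 4) and 371 ± 66.7 (SD, n = 5), so the mutant level was 16.5% of the control level. On the log2(value + 1) scale the difference of mutant from control was -2.58 (SE 0.19). Series A alone gave -3.13, series B -2.37 and series C -2.04. The lowest library, mutant replicate 1, and the highest, control replicate 1, both belong to series A. Without mutant replicate 1, the only mutant of series A, the difference was -2.23 and came from series B and C alone. It was the smallest among the settings that left out 1 library.

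**Figure D1:**
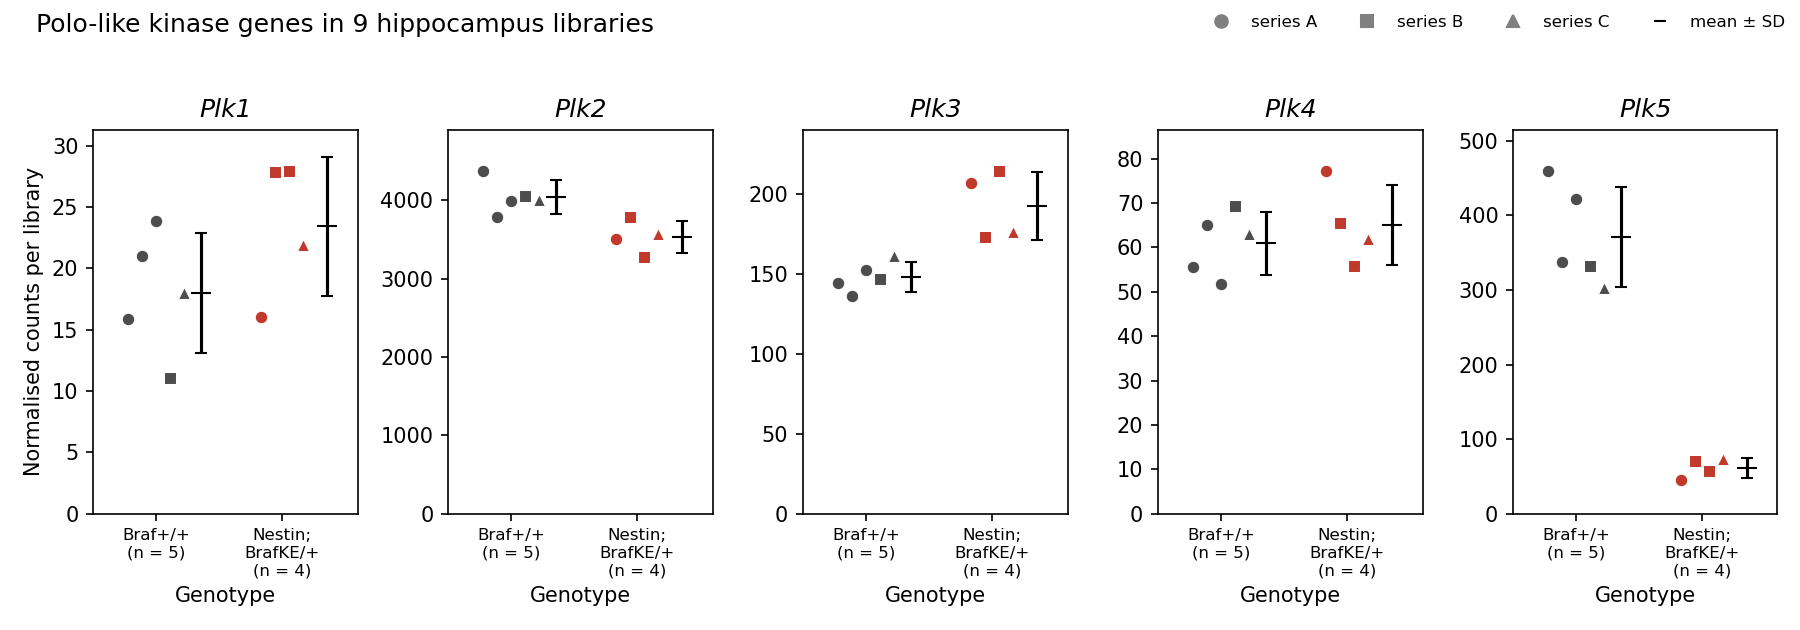
Normalised counts of the 5 Polo-like kinase genes (vertical axes from 0, 1 panel per gene) in 5 Braf+/+ libraries (gray) and 4 Nestin;BrafKE/+ libraries (red), with the series of library names as the shape of the point and the mean ± SD beside each group. Plk5 runs from 45.2 to 72.8 in the mutants and from 303 to 460 in controls, while the groups of Plk1 and Plk4 overlap.

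Plk3, the stress-responsive member, lay in the opposite direction. Mutant replicates 1 to 4 had 207, 173, 215 and 176 normalised counts and control replicates 1 to 5 had 144, 136, 152, 147 and 161. The groups did not overlap, although the highest control (161) and the lowest mutant (173) were close. Means were 193 ± 21.1 (SD, n = 4) and 148 ± 9.38 (SD, n = 5), with a log2 difference of 0.37 (SE 0.12). Series A alone gave 0.52, B 0.39 and C 0.13. Plk3 is annotated at chr4:116985852-116991226 on the minus strand. It overlaps Dynlt4 and a predicted gene on the opposite strand, and the sources used here do not say whether counting used strand.

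Plk2, the synaptic member and the most abundant, had 3504, 3780, 3279 and 3563 normalised counts in mutant replicates 1 to 4. Control replicates 1 to 5 had 4377, 3787, 3992, 4056 and 4000. The groups did not overlap, but mutant replicate 2 and control replicate 2 nearly met. Means were 3531 ± 206 (SD, n = 4) and 4042 ± 213 (SD, n = 5), with a log2 difference of -0.20 (SE 0.06). The 3 series gave close values, -0.21, -0.20 and -0.17. Plk2 (chr13:110531015-110537379, plus strand) has no annotated overlap with another gene.

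Plk1 and Plk4, which act in dividing cells, were the members with the lowest normalised counts in controls. Plk4, the centriole kinase (chr3:40754427-40772633, plus strand), had 77.3, 65.6, 55.9 and 61.8 normalised counts in the mutants and 55.6, 65.0, 51.8, 69.3 and 63.1 in controls. Its groups overlapped, and the log2 difference was 0.09 (SE 0.18). By series it was 0.43 (A), -0.19 (B) and -0.03 (C). Plk1, the mitotic kinase (chr7:121758646-121769108, plus strand), had 16.1, 27.8, 28.0 and 21.9 in the mutants and 15.9, 21.0, 23.9, 11.05 and 18.0 in controls. These groups overlapped too, and the log2 difference of 0.39 (SE 0.33) was about as large as its error. It turned sign between series, with -0.30 (A), 1.26 (B) and 0.27 (C), and control replicate 4, the lowest library, was the only control of series B. Without that library the log2 difference of Plk1 was -0.071, from series A and C alone. Without mutant replicate 1, the only mutant of series A, the log2 difference of Plk4 was -0.12, from series B and C alone.

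Of the 5 members, all of which passed the filter on low values, 1 (Plk5) had an adjusted p under 0.05 in the limma fit, lower in the mutants, where 2.88% of all 16196 genes tested did, 1.36% lower and 1.52% higher. The groups held separate ranges of values for 3 members (Plk2 and Plk5 lower, Plk3 higher in the mutants) and for 15.7% of all genes tested, 8.13% lower and 7.62% higher. Because this contrast chose the family, nothing is read from these counts. The median log2 difference was 0.09 over the members and 0.00 over all genes tested, and the median of the absolute differences was 0.37 and 0.12.

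**Figure D2:**
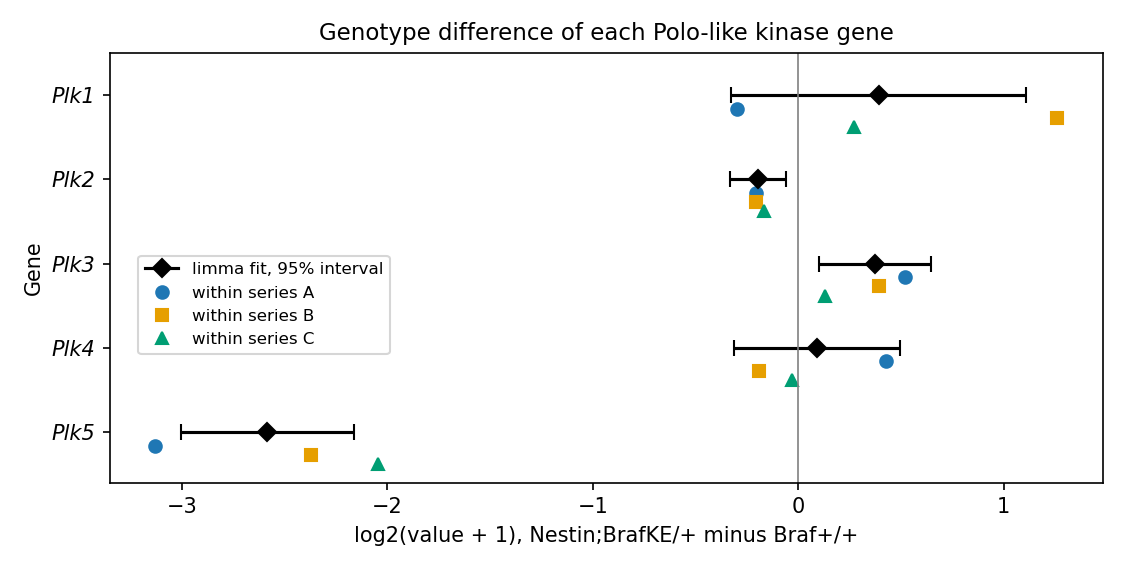
Difference of Nestin;BrafKE/+ from Braf+/+ in log2(value + 1) for each Polo-like kinase gene, from the limma fit with its 95% interval (black diamonds) and within each series of library names (colored symbols). Plk5 lies between -3.13 and -2.04 in the 3 series, Plk2 and Plk3 keep their signs at smaller sizes, and the series of Plk1 and Plk4 fall on both sides of 0.

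Levels of different genes were compared per kilobase (kb), after division by the length of the union of annotated exons. In controls the order was Plk2 with 790 ± 41.7 normalised counts per kb (SD, n = 5), Plk5 with 115 ± 20.7, Plk3 with 49.4 ± 3.13, Plk4 with 7.48 ± 0.87 and Plk1 with 6.29 ± 1.72. Among all genes tested, the control level per kb stood at percentile 96.0 for Plk2, 66.2 for Plk5, 44.0 for Plk3, 11.3 for Plk4 and 9.28 for Plk1. Plk4 and Plk1 were neighbors whose ranges overlapped in controls and in mutants with this length. Their order depended on the length, since Plk4 was above Plk1 in 4 of 5 controls and 1 of 4 mutants with the union of exons, and in 5 of 5 and 4 of 4 with the longest or the canonical transcript. In the mutants Plk2 had 690 ± 40.3 per kb (SD, n = 4), Plk3 64.3 ± 7.04, Plk5 19.0 ± 3.99, Plk1 8.21 ± 1.98 and Plk4 7.998 ± 1.11.

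Plk5 and Plk3 thus changed places. Plk5 was above Plk3 per kb in 5 of 5 controls, and Plk3 was above Plk5 in 4 of 4 mutants. This held with the longest and with the canonical transcript as the length. The ratio of Plk3 to Plk5 per kb ran from 0.337 to 0.571 in controls and from 2.61 to 4.92 in mutants. In controls Plk5 made up 11.8% ± 1.57 (SD, n = 5) of the summed per-kb level of the family, against 2.40% ± 0.45 (SD, n = 4) in mutants. The share of Plk2 was 81.6% ± 1.29 in controls and 87.4% ± 1.09 in mutants, and that of Plk3 was 5.11% ± 0.41 and 8.18% ± 1.24. Part of these shares follows from the level of Plk5 alone, since the shares of a library add up to the whole. Plk5 stayed above Plk4 in 4 of 4 mutants with the union of exons and in 3 of 4 with the other lengths.

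**Figure D3:**
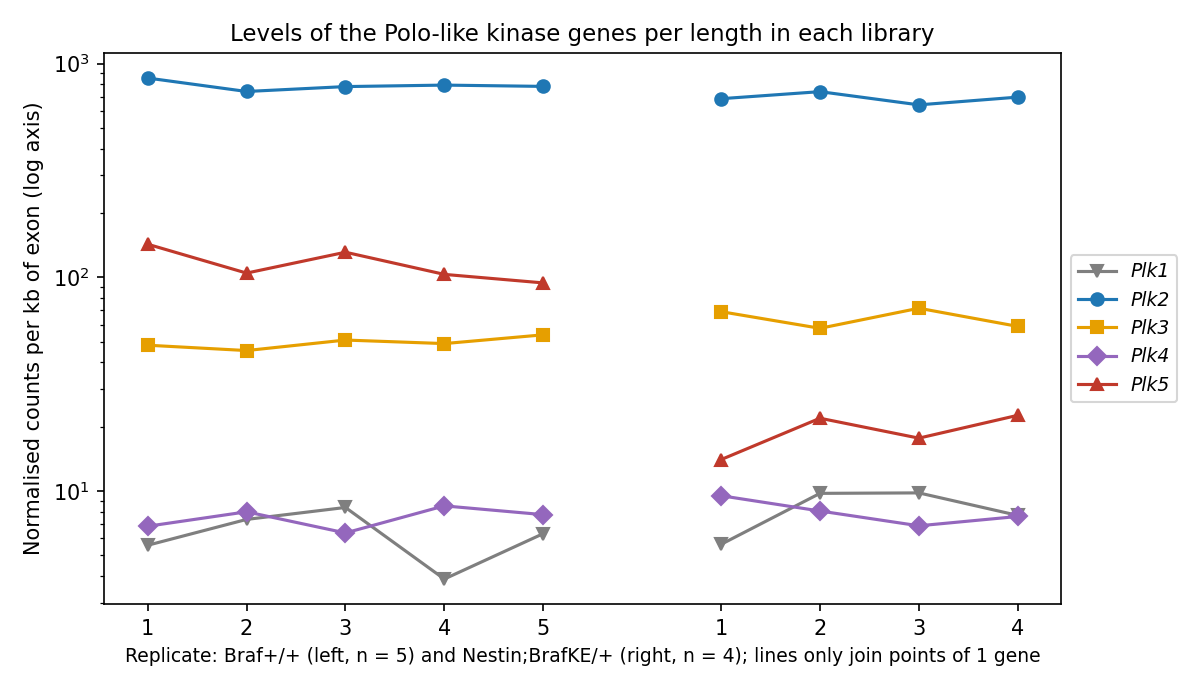
Level of each Polo-like kinase gene in normalised counts per kb of annotated exon (log axis) in each library, with the 5 Braf+/+ replicates on the left and the 4 Nestin;BrafKE/+ replicates on the right. Plk2 stays on top in 9 of 9 libraries, Plk5 lies above Plk3 on the left and below it on the right, and Plk1 and Plk4 cross.

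Transcript sequences were compared between genes in the sense direction only. None of the 31-base words in the transcripts of Plk2, Plk3 or Plk5 occurred in a transcript of another gene. Reverse complements were not searched, so sequence shared with a gene on the opposite strand, such as those that overlap Plk3, was not covered. For Plk1, 329 of 3076 words (10.7%) were shared with the pseudogene Plk-ps1. For Plk4, 588 of 8549 (6.88%) were shared with many genes, so the low values of Plk1 and Plk4 are the less certain ones. Plk4 also overlaps Mfsd8, and Plk1 a predicted gene, on the opposite strand.

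Genes beside Plk5 on chromosome 10 were listed to place its level in its neighborhood. On the side before its start lie Pcsk4 (log2 difference of mutant from control 0.41, SE 0.28), Reep6 (0.49, SE 0.13) and Adamtsl5 (0.32, SE 0.32). On the other side lie Mex3d (-0.02, SE 0.14), Mbd3 (0.13, SE 0.06) and Uqcr11 (0.18, SE 0.09). None of the 6 had an adjusted p under 0.05 in the limma fit, and at an unadjusted p under 0.05 there were 2, Reep6 and Mbd3. The share of all genes tested at that unadjusted p was not counted, so nothing is read from this count. The values of Reep6, which encodes a membrane-shaping protein, did not overlap between the groups and were higher in the mutants, with an adjusted p of 0.0645. Of 102 genes tested within 1 Mb of Plk5, 3 passed, Hcn2, Midn and Cbarp, a share near the 2.88% of all genes tested. These 3 were named after their values were seen.

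The genes whose levels followed Plk5 most closely were taken by Pearson r over the 9 libraries on log2(value + 1), among 12528 named genes with a mean of at least 50. Since Plk5 separates the genotypes, a high r mainly picks genes that separate them too, and no p is given. Prkce, a protein kinase C, was highest with r = 0.997, then Slk, a kinase (0.987), Epb41, a membrane skeleton protein (0.987), Ubtf, a factor of ribosomal RNA transcription (0.986), and Lct, lactase, which dentate granule cells of the mouse express (0.985). Their differences were far smaller than that of Plk5. Epb41 had 258, 322, 285 and 303 normalised counts in the mutants and 630, 632, 557.5, 538 and 558.5 in controls, a log2 difference of -0.998 (SE 0.10). Prkce had 10820 ± 170.0 (SD, n = 4) and 12329 ± 165 (SD, n = 5), a log2 difference of -0.19 (SE 0.04), and Ubtf only -0.10 (SE 0.05).

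At the other end, Cyb5r1, a cytochrome b5 reductase, had r = -0.998 to Plk5, followed by Ccnd1 (-0.993), Spon1 (-0.991), Adhfe1 (-0.990) and Dusp15 (-0.990). Ccnd1 encodes cyclin D1, which is induced by the Ras/ERK pathway. It had 1830, 1612, 1653 and 1452 normalised counts in mutant replicates 1 to 4 and 868, 914, 867, 917 and 1033 in control replicates 1 to 5. The mutant library lowest in Plk5 was thus the highest in Ccnd1, and the control library lowest in Plk5 was also the highest control in Ccnd1. Ccnd1 was picked by its r to Plk5 over these same libraries, so nothing is read from this match. Dusp15, a phosphatase, had a log2 difference of 0.52 (SE 0.09), and Spon1, a secreted matrix protein, 0.51 (SE 0.05). With the group means removed, r to Plk5 was -0.94 for Cyb5r1, -0.88 for Ccnd1, 0.92 for Prkce and 0.56 for Slk, over the same 9 libraries that share their series. It was 0.69 for Epb41, 0.92 for Ubtf, 0.65 for Lct, -0.72 for Spon1, -0.94 for Adhfe1 and -0.72 for Dusp15. All these genes were picked by their r over the same libraries, so part of the r within groups follows from that choice and nothing is read from it.

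**Figure D4:**
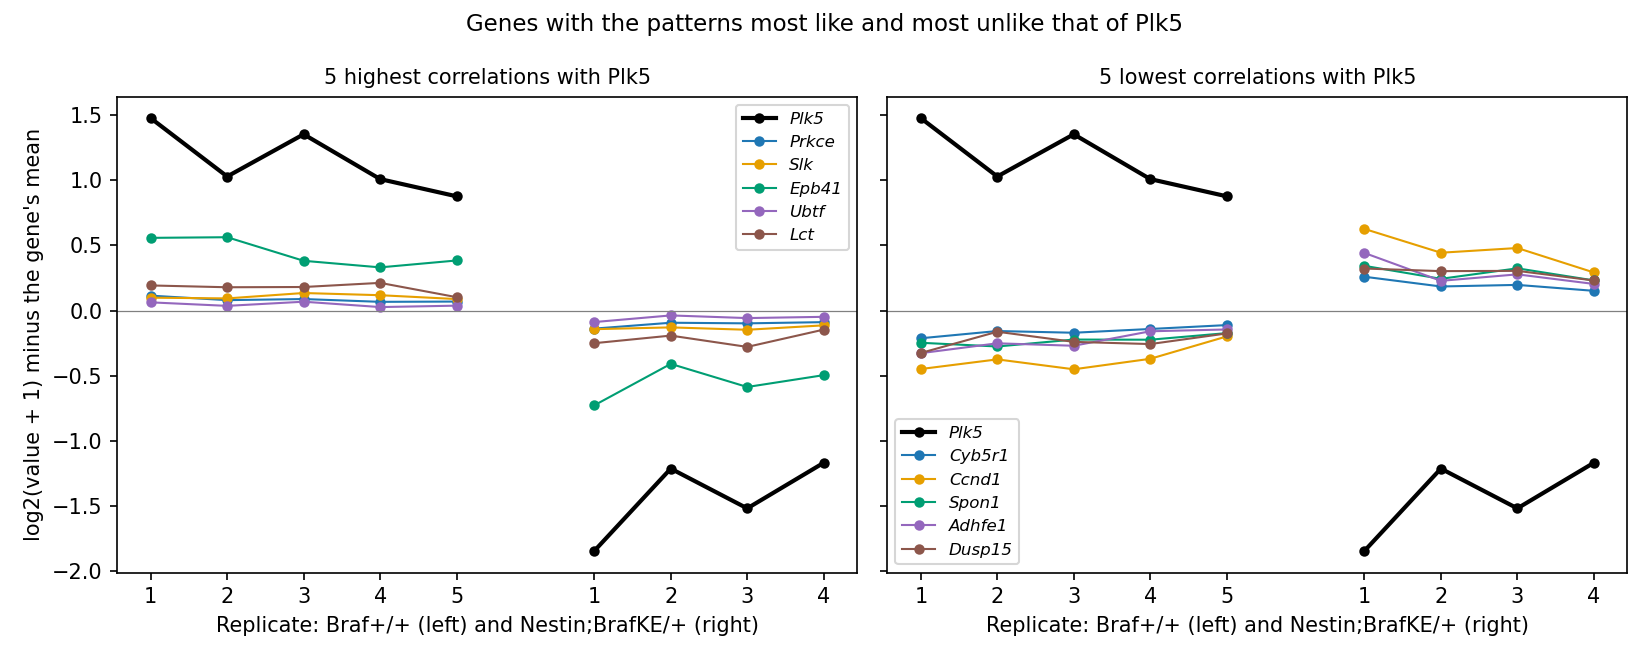
Level of Plk5 (black) and of the 5 genes with the highest (left) and lowest (right) correlation with it, as log2(value + 1) minus the mean of the gene over 9 libraries, for 5 Braf+/+ and 4 Nestin;BrafKE/+ replicates. Plk5 spans from 1.48 to -1.84, while Epb41, the most changed of the 5 on the left, has a difference of -0.998 and Ccnd1 on the right one of 0.83.

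Between members, r over the 9 libraries was 0.86 for Plk2 and Plk5, -0.90 for Plk3 and Plk5, and -0.83 for Plk2 and Plk3. With the group means removed these were 0.56, -0.59 and -0.44. The genes most like the other members were different ones. For Plk2 they were Zfp354b, Cd109 and Rem2 (r = 0.994, 0.987 and 0.979), for Plk3 Acss1, Grm3 and Trmt9b (0.989, 0.988 and 0.987), for Plk4 Ephx1, Dhcr7 and Serpinb9 (0.979, 0.966 and 0.958) and for Plk1 Neurl1a, Trim12a and Ptov1 (0.984, 0.976 and 0.9754).

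Partners of the family and immediate early genes were then tested from 5 lists of 88 genes, of which 81 passed the filter. The immediate early genes are not partners of the family. Together 6 of the 81 (7.41%) had an adjusted p under 0.05, beside 2.88% of all genes tested, with 2 higher (1.52% of all genes tested) and 4 lower (1.36%) in the mutants. Of these 6 calls, 4 were immediate early genes and 2 came from the synaptic list, so the pooled share does not describe the partners. The median log2 difference over the 81 was -0.03. These lists and the cell type lists below were chosen with earlier results of these data known. Their shares and adjusted p-values are therefore given as descriptions, and no enrichment is read from them.

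The synaptic list holds targets and regulators around Plk2, and 2 of its 15 genes passed, both lower. Rapgef2, a Rap activator that Plk2 phosphorylates, fell from 3546, 3389, 3196, 3389 and 3345 normalised counts in control replicates 1 to 5 to 2858, 3019, 2717 and 2894 in mutant replicates 1 to 4. The log2 difference was -0.23 (SE 0.05, adjusted p = 0.0478). Rap2a, a small GTPase of the Rap group, fell from 2408, 2613, 2525, 2530 and 2536 to 2181, 2184, 2141 and 2154, a log2 difference of -0.22 (SE 0.05, adjusted p = 0.0393). For both genes every mutant library lay below every control. Dlg4, which encodes the postsynaptic scaffold PSD-95, was close to the threshold (0.22, SE 0.05, adjusted p = 0.0510) and was named after its value was seen. The most abundant genes of the list, App (-0.03, SE 0.05) and Nsf (-0.07, SE 0.05), did not pass, and the list median was 0.01.

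Of the 19 immediate early genes, which neurons switch on with activity as they do Plk2, 4 passed. Arc, which acts in synaptic plasticity, rose to 3041, 2362, 2851 and 2273 normalised counts in the mutants from 1525, 1311, 1550, 1556 and 1765 in controls, a log2 difference of 0.77 (SE 0.11, adjusted p = 0.00707). Nptx2, a synaptic pentraxin, rose to 670, 702, 680 and 614 from 481, 399, 507, 428 and 500, with 0.53 (SE 0.10, adjusted p = 0.0187). Nr4a2, a nuclear receptor, fell to 920, 889, 870 and 893 from 1154, 1237, 1323, 1289 and 1250, with -0.48 (SE 0.06, adjusted p = 0.00425). Fos fell to 79.3, 87.4, 70.9 and 67.8 from 118, 108, 136, 113 and 136, with -0.67 (SE 0.15, adjusted p = 0.0457). The 4 genes thus split evenly in direction, the list median was 0.01, and the abundant Homer1 (-0.03, SE 0.07) and Egr1 (0.30, SE 0.15) did not pass. The mutant library lowest in Plk5, replicate 1, was the highest in Arc.

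None of the 21 mitotic partners tested, none of the 16 centriole partners and none of the 10 stress partners passed in limma. At an unadjusted p under 0.05 in limma there were 3, 3 and 2. The share of all genes tested at that p was not counted, so nothing is read from these counts. Medians were -0.03, -0.09 and -0.14. The most abundant mitotic partners were Fzr1 (0.08, SE 0.08), an activator of the anaphase-promoting complex, and Wee1 (-0.25, SE 0.09), a brake on mitotic entry. Those of the centriole list, Fbxw11 (0.01, SE 0.05) and Ccp110 (-0.12, SE 0.07), and the abundant Jun of the stress list (-0.11, SE 0.08) did not pass either. The value farthest from 0, -1.92 (SE 0.68) for the cytokinesis motor Kif23, came with 5.76 ± 5.22 normalised counts in mutants (SD, n = 4) and 23.0 ± 11.2 in controls (SD, n = 5), groups that overlapped, and was named after it was seen. The summed level of the stress list, of which Plk3 is no part, ran from 8673 to 9153 in mutants and from 9532 to 10138 in controls, lower without overlap, while Plk3 was higher.

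**Figure D5:**
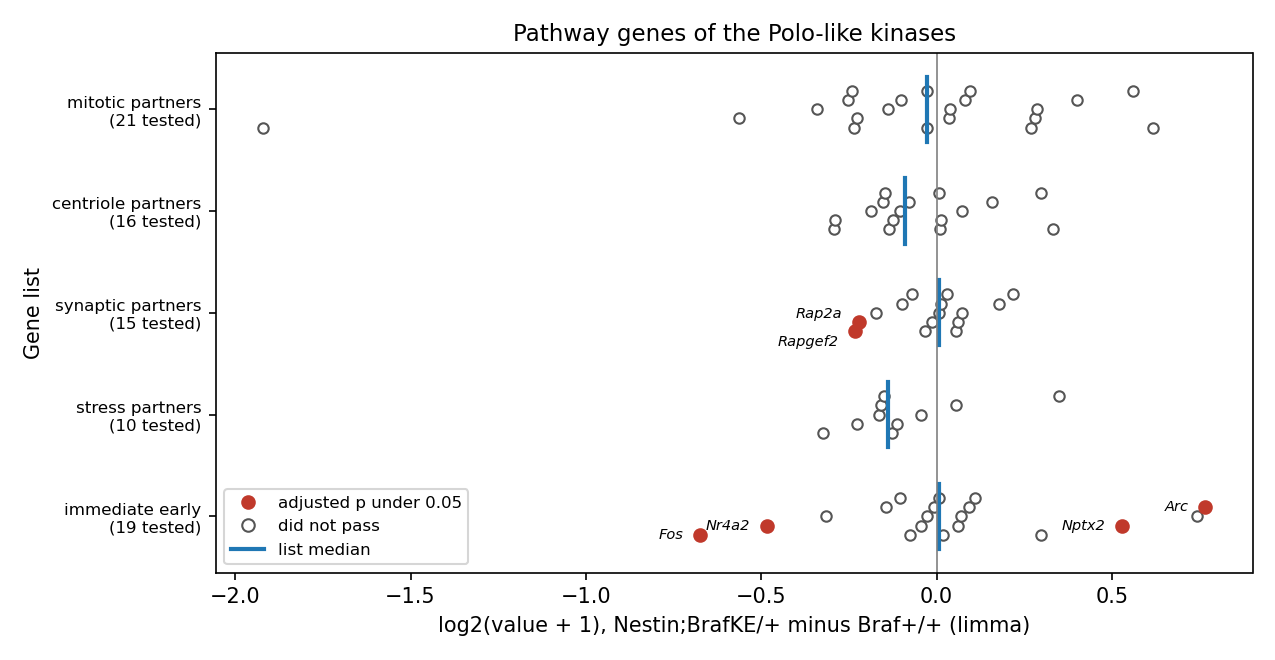
Difference of Nestin;BrafKE/+ from Braf+/+ in log2(value + 1) from the limma fit for each tested gene of 5 lists, of partners of the Polo-like kinases and of immediate early genes (points), with the list median (blue bar) and genes with an adjusted p under 0.05 filled in red. The 6 filled points are Rapgef2, Rap2a, Fos and Nr4a2 at negative values and Nptx2 and Arc at positive ones, and the 5 medians lie between -0.14 and 0.01.

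Most of these 6 calls failed in some setting that left out 1 library. Mutant replicate 1 was the only mutant of series A and control replicate 4 the only control of series B. Leaving either out also takes its series out of the genotype difference, so a failure there cannot be put down to that library alone. Nr4a2 passed without any 1 library, with an adjusted p of at most 0.0409. Arc failed without mutant replicate 1 (adjusted p = 0.0742) and without control replicate 4 (0.0525). Nptx2 failed without the same libraries (0.122 and 0.128) or mutant replicate 3 (0.0590). Fos passed in limma only without mutant replicate 2, Rap2a only without control replicate 1 and Rapgef2 only without control replicate 3, with adjusted p-values of up to 0.143, 0.142 and 0.187 in the other settings.

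Markers of cell types moved with genotype as well. In bulk tissue, fewer cells of a type and less RNA per cell cannot be told apart. The summed neuron list ran from 106991 to 109238 normalised counts in mutants and from 111270 to 119719 in controls. The mutant mean was 92.9% of the control mean without overlap of the groups, although none of the 7 genes passed. At an unadjusted p under 0.05 in limma there were 3, a count without the share of all genes beside it. Of the 7 genes 4 were lower and 3 higher, with log2 differences from -0.18 to 0.18, and the sum gives most weight to the abundant ones. The dentate granule cell list overlapped, with 11516 to 12249 and 11474 to 12135 (99.2% of the control mean). Of its 10 genes 4 passed in limma, where 2.88% of all genes tested did, Dsp (-0.78, SE 0.12, adjusted p = 0.0106), Lct (-0.39, SE 0.07, adjusted p = 0.0161) and Stxbp6 (-0.41, SE 0.07, adjusted p = 0.0104) lower and Calb1 (0.43, SE 0.08, adjusted p = 0.0178) higher. Dsp, a desmosome protein, had 396, 480, 402 and 546 in mutants and 836, 777, 817, 820 and 642 in controls, and was again lowest in mutant replicate 1. All 4 calls failed without mutant replicate 1 (adjusted p from 0.0664 to 0.117) or control replicate 4 (0.0554 to 0.0978), and those of Calb1 and Lct also without mutant replicate 3 (0.0527 and 0.0515). The summed CA1 list was higher at 124% of controls, the oligodendrocyte list at 127% and the oligodendrocyte precursor list at 116%, each without overlap. Of these lists 2 of 5 CA1 genes, 4 of 9 oligodendrocyte genes and 1 of 3 precursor genes passed in limma, all higher. Unlike the dentate calls, these were not followed over the settings that left out 1 library. CA2 and CA3 (92.8%), astrocyte (101%), microglia (108%), endothelium (98.3%), thalamus (106%) and blood (141%) lists overlapped. No gene of these lists was at 0 in any library. Their part in the level of Plk5 was not tested.

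Choroid plexus genes varied most between libraries, from 1479 to 24628 summed normalised counts in mutants and from 4667 to 392743 in controls, with the highest sum in control replicate 2. That library had 337 normalised counts of Plk5, inside the control range, and without it the log2 difference of Plk5 was -2.61. For Plk2 and Plk3 it was then -0.21 and 0.35.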

How the data were processed

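The deposited values, made by the authors, are a signal in normalised counts, 1 per gene and library. Per the paper's methods and the submitters' processing notes, reads were trimmed with Trim Galore, aligned to GRCm39 with STAR and quantified with Salmon, batches that are not named were adjusted, and values were scaled for DESeq2. Sequencing depth is therefore unknown, no count model was used, and precision comes from the spread between libraries. No per-sample column was left out. A mean of at least 10 was required, and the genes were fitted with limma 3.58.1 (R 4.3.3, trend) on log2(value + 1), which understates the change of low genes, with terms for genotype and for series. Two-sided p-values were adjusted over the 16196 genes by the Benjamini-Hochberg method, and 0.05 was the threshold. Alternatives were pseudocounts of 0.5 and 8, no filter or a mean of at least 50, TMM factors, quantile normalisation, no series term, the replicate number as a block, other lengths, and leaving out each library.

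The family and all gene lists were chosen with earlier results of these data known. Named were the members, pathway genes past the threshold and the 2 most abundant per list, the 5 highest and 5 lowest correlations with Plk5, the 3 highest with each other member, the 3 nearest genes on each side of Plk5, and dentate granule cell genes past the threshold. Marker genes were otherwise used as lists and to check the tissue. Coordinates and lengths came from Gencode vM39 on GRCm39, which held 99.5% of the gene IDs, and promoters from RefSeq, which matched 5 of 5 members. Protein sequences were not used here, and 1 abundant gene of the stress list and 1 promoter run are not reported here. Sequences and figures were handled in Python 3.11.15 (pandas 2.3.3, matplotlib 3.10.9).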

Additional observations from a re-analysis of the deposited data

Results flagged for a closer look

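None of the values of the 5 Polo-like kinase genes stood apart within its group. Of 64 groups of values examined (the members, the pathway and dentate granule cell genes past the threshold and the summed lists, by genotype), 3 held 1 library far from the rest, where chance flags about 1 in 20. The summed neuron list was 109238 normalised counts in Nestin;BrafKE/+ replicate 2, against 106991 to 107214 in the other 3 mutant libraries. In Braf+/+ replicate 2 the summed choroid plexus list was 392743, and the nearest control had 114371. The same library had the highest blood sum of the controls, 3579 against 3292 in the nearest, while the mutants reached 6184.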

How the results depend on the processing

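The log2 difference of Plk5 lay between -2.77 and -2.23 over the 17 alternatives of the limma fit, and over the 9 of them that left out 1 library. Because this contrast chose the family, the members' counts past the threshold here describe how the values move and support no call. The values without Nestin;BrafKE/+ replicate 4 and without Braf+/+ replicate 5 are equal, because the library left alone in series C is taken up by its series term. In the same way series A adds nothing to the genotype difference without Nestin;BrafKE/+ replicate 1, and series B nothing without Braf+/+ replicate 4. Without the series term 3 members were past the threshold (Plk2 at -0.20 and Plk3 at 0.37 beside Plk5), with 2260 genes in all and 14 pathway genes. With the replicate number as a block 2 members were past the threshold (Plk3 at 0.40), with 1405 genes and 13 pathway genes. The numbers mark no shared animal or batch, and the deviations of same-numbered libraries correlated at -0.39, -0.08, 0.07 and 0.41, so the numbers were not taken to pair the libraries. Leaving out 1 library gave 42 to 369 genes past the threshold against 466 (42 without Nestin;BrafKE/+ replicate 1, 97 without Braf+/+ replicate 4, 165 without Nestin;BrafKE/+ replicate 3 and 281 without Braf+/+ replicate 1) and 1 to 5 pathway genes against 6. In these settings the count of members was 1 throughout. Plk4 turned to -0.12 without Nestin;BrafKE/+ replicate 1 and Plk1 to -0.071 without Braf+/+ replicate 4, in ranges over the left-out libraries of -0.12 to 0.25 for Plk4 and -0.071 to 0.84 for Plk1. With the longest transcript as length, Plk5 made up 10.2% of the family level in controls, against 11.8%. The length of the canonical transcript, an alternative added after the data were seen, gave 10.95%, and leaving out 1 control gave 11.4% to 12.3%. The other alternatives left the count of members at 1. Among pathway genes, Rapgef2 and Fos failed without a filter (adjusted p = 0.0514 and 0.0523) and Fos under quantile normalisation (0.0512). The median log2 difference over all genes stayed within 0.01 of 0. Plk1 was not tested with a mean of at least 50.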
